A study of Mus musculus with 6 samples.

Results

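The *Hsd3b* genes of the mouse encode 3-beta-hydroxysteroid dehydrogenases, and the 7 that carry this name (*Hsd3b1* to *Hsd3b7*) were followed among the 55254 genes of a table of whole-liver transcript levels. The family was chosen by its measured values, because *Hsd3b5* was known to be among the genes that fell most on the diet described below. The values of the members in that comparison are therefore given as a description and carry no test. All 7 members were found by symbol, and 3 of them (*Hsd3b2*, *Hsd3b3* and *Hsd3b5*) passed the filter of a mean of at least 1 TPM (a level relative to all transcripts, corrected for gene length) over the 6 libraries.

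3-beta-hydroxysteroid dehydrogenases of the classical kind oxidise the 3-beta-hydroxyl group of a steroid and move its double bond, which turns pregnenolone into progesterone and dehydroepiandrosterone into androstenedione. Mice have several such genes side by side, expressed in different organs: *Hsd3b1* and *Hsd3b6* are known from adrenal gland, gonads and other steroid-making cells, *Hsd3b2* and *Hsd3b3* from liver and kidney, and *Hsd3b4* from kidney. *Hsd3b5* is a liver gene of adult male mice whose product works as a 3-ketosteroid reductase and inactivates androgens, and *Hsd3b7* encodes the C27 enzyme of bile acid synthesis, which acts on 7-alpha-hydroxylated sterols made from cholesterol.

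The study asked what happens in the liver during diet-induced steatohepatitis, with most of its attention on macrophages. Whole-liver RNA was sequenced from 3 WT mice on a normal diet (ND) and 3 WT mice given CDA-HFD for 7 weeks. This feed is rich in fat, lacks choline and holds defined L-amino acids, and it brings on steatohepatitis and fibrosis. The CDA-HFD protocol used male mice aged 6 to 12 weeks at its start, and the sex and age of the ND mice are not stated separately. The labels name liver as the source (their RNA extraction entry, in contrast, mentions sorted cells) and call the 3 libraries of a diet biological replicates.

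Read numbers, worked back from the step size of the TPM values, were 13957519 to 15096491 per ND library and 16560805 to 18620253 per CDA-HFD library. The Y-linked genes *Ddx3y*, *Uty*, *Kdm5d* and *Eif2s3y* were read in all 6 libraries, with *Ddx3y* at 51.3 to 61.0 TPM, whereas *Xist* stayed at or below 0.0157 TPM, the pattern of male mice in both groups. The hepatocyte list was present in both diets, with *Alb* (albumin) at 15514 ± 116 TPM (SD, n = 3) on ND and 12591 ± 701 TPM (SD, n = 3) on CDA-HFD. On the TPM scale the median difference over all 14730 tested genes was 0.32 (log2, CDA-HFD minus ND), against -0.05 after median-of-ratios scaling and -0.12 after quantile normalization. The same 3 scales gave 3115, 2252 and 1811 genes called higher in CDA-HFD and 558, 1044 and 1188 called lower, a call being an adjusted p under 0.05 and a log2 difference that reaches 1 in either direction.

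*Hsd3b5* had the highest mean level of the family in ND and nearly vanished from the liver on CDA-HFD. Its level was 585.0, 501.2 and 633.4 TPM on ND replicates 1, 2 and 3, and 0.259, 0.273 and 0.313 TPM on CDA-HFD replicates 1, 2 and 3. No CDA-HFD library came near an ND library. The coefficient of variation was 11.7% in ND. The CDA-HFD values rest on 3, 3 and 4 reads, at or near the floor of 3 reads (0.235 to 0.273 TPM). Their coefficient of variation of 9.94% therefore cannot measure how well the replicates match. The mean fell from 573.2 ± 66.9 TPM (SD, n = 3), rank 285 among all genes of the table, to 0.282 ± 0.028 TPM (SD, n = 3), rank 18635. In reads, 17394 in ND stood against 10 in CDA-HFD, a level 2024-fold higher in ND (exact 95% interval 1100 to 4222, for counting error only). The log2 difference of log2(TPM + 1) was -8.80 ± 0.10 (SE), and because the pseudocount of 1 TPM exceeds the CDA-HFD level it understates the ratio: voom on the recovered reads gave -10.83 ± 0.47 (SE).

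*Hsd3b3* was the next most abundant member in ND and the most abundant on CDA-HFD. Its levels were 499.0, 500.3 and 440.9 TPM on ND and 137.7, 103.4 and 117.4 TPM on CDA-HFD, so that the highest CDA-HFD library was still below the lowest ND library. The mean went from 480.1 ± 33.9 to 119.5 ± 17.3 TPM (SD, n = 3 each), which leaves 24.9% of the ND mean and a log2 difference of -2.00 ± 0.11 (SE). In ND the 2 genes were at like levels, with an *Hsd3b5* to *Hsd3b3* ratio of 1.17, 1.00 and 1.44 in the 3 libraries. On CDA-HFD that ratio was 0.00188, 0.00264 and 0.00267.

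*Hsd3b2*, the closest relative of *Hsd3b3* in coding sequence, was less abundant and lost a larger share of its level than *Hsd3b3*. It was at 68.4, 62.4 and 63.9 TPM on ND and at 8.15, 5.08 and 8.27 TPM on CDA-HFD. The groups did not overlap, and CDA-HFD replicate 2 was the lowest library for both *Hsd3b2* and *Hsd3b3*. The means were 64.9 ± 3.13 and 7.17 ± 1.81 TPM (SD, n = 3 each), with 11.0% of the ND mean left and a log2 difference of -3.04 ± 0.16 (SE). The *Hsd3b3* to *Hsd3b2* ratio accordingly stood at 7.29, 8.01 and 6.90 in ND and at 16.9, 20.4 and 14.2 in CDA-HFD.

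All 3 members past the filter met the rule for a gene called lower, which 3.79% of the 14730 tested genes met, and in all 3 every CDA-HFD library lay below every ND library, as in 16.1% of tested genes. The comparison that chose the family fixed this outcome, and a member that passes the filter only through its ND level had to differ. Fewer hepatocytes in the tissue and less RNA per hepatocyte cannot be told apart in whole liver. The direction of the 3 members was the same under the other scalings: *Hsd3b5* was at -9.04 and -8.86, *Hsd3b3* at -2.40 and -2.06 and *Hsd3b2* at -3.41 and -3.45 (log2 differences after median-of-ratios and quantile normalization).

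**Figure D1:**
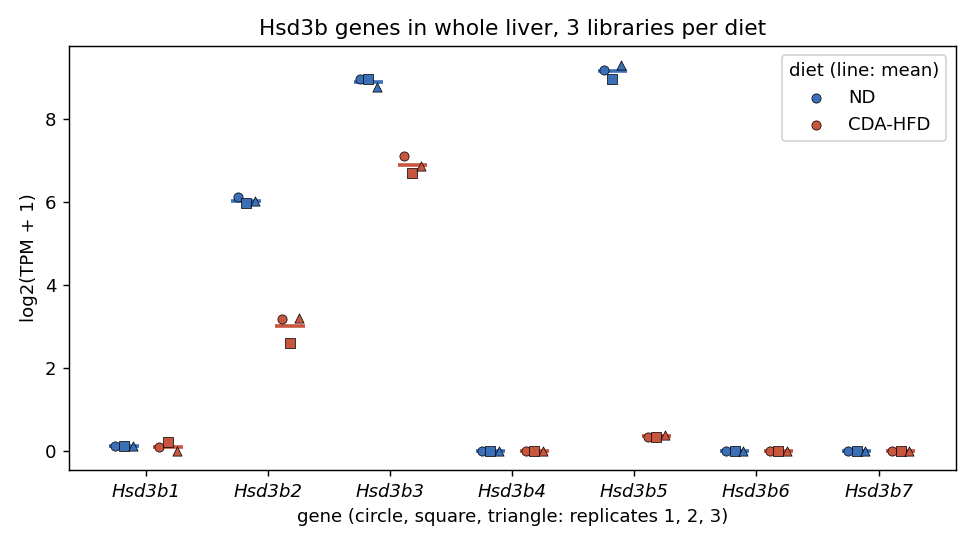
Level of each *Hsd3b* gene as log2(TPM + 1) in 3 ND libraries (blue) and 3 CDA-HFD libraries (red), with a line at each group mean and a marker shape for each replicate number. *Hsd3b5* drops from 501.2 to 633.4 TPM on ND to 0.259 to 0.313 TPM on CDA-HFD, *Hsd3b2* and *Hsd3b3* drop less, and the other 4 members lie at or near 0 on both diets.

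Summed over the 7 members, the family made up 1152, 1064 and 1138 TPM on ND and 146.2, 108.9 and 126.0 TPM on CDA-HFD. The mean sum thus went from 1118 ± 47.5 to 127.0 ± 18.7 TPM (SD, n = 3 each), a log2 ratio of -3.14. The make-up of the sum changed with its size: *Hsd3b5* supplied 50.8%, 47.1% and 55.6% of it in ND and 0.177%, 0.251% and 0.249% in CDA-HFD. *Hsd3b3* went from 38.7% to 47.0% of the sum in ND to 93.2% to 94.9% in CDA-HFD. The share of *Hsd3b2* was 5.81% ± 0.171 in ND and 5.60% ± 0.952 in CDA-HFD (SD, n = 3 each), ranges that overlapped.

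**Figure D2:**
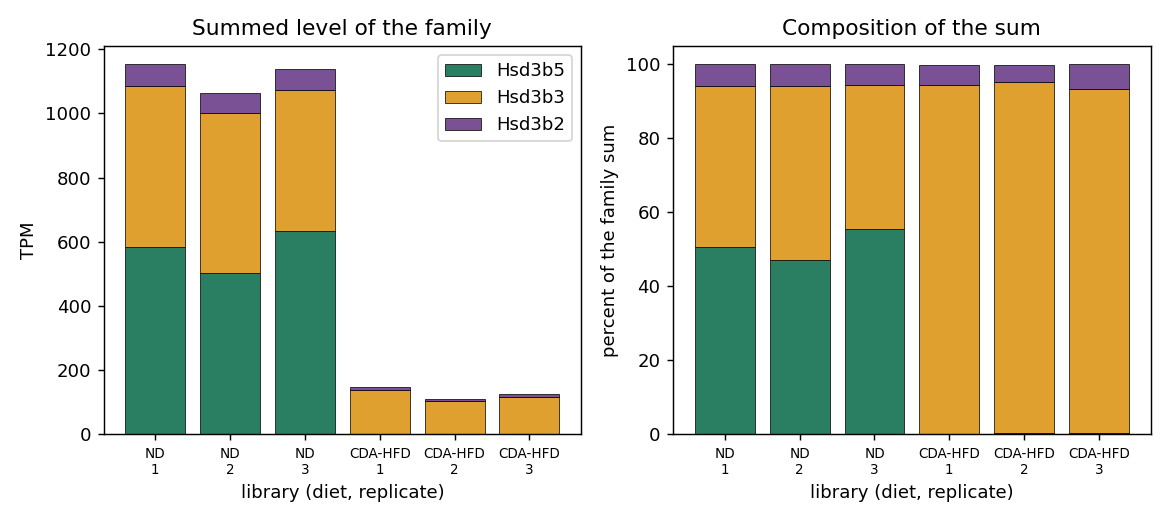
Left, the summed level of the family in TPM for each library, stacked by *Hsd3b5* (green), *Hsd3b3* (yellow) and *Hsd3b2* (purple). Right, the same as a percent of the sum: *Hsd3b5* holds 47.1% to 55.6% in the ND libraries and 0.177% to 0.251% in the CDA-HFD libraries, where *Hsd3b3* makes up nearly the whole.

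The 250 bases before the RefSeq start of the 3 liver members are shown because these genes fell together, and to show which of them share upstream sequence (RefSeq promoters, build GRCm38.p6, each written 5′ to 3′ along its gene on the minus strand of chromosome 3). *Hsd3b5* was read from chr3:98645535-98645784, *Hsd3b3* from chr3:98763129-98763378 (the first of the 2 starts listed for it) and *Hsd3b2* from chr3:98724544-98724793. Capitals mark the longest run that the *Hsd3b5* and *Hsd3b3* windows have in common.
Hsd3b5: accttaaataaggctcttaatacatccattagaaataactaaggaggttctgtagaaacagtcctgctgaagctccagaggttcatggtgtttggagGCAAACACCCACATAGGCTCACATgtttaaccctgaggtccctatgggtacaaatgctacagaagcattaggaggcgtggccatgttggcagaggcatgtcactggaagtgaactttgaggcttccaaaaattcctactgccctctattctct
Hsd3b3: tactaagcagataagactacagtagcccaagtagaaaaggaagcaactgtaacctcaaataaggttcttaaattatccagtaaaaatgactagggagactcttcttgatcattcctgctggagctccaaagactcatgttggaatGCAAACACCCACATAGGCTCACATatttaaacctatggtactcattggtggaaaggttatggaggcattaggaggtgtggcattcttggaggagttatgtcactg
Hsd3b2: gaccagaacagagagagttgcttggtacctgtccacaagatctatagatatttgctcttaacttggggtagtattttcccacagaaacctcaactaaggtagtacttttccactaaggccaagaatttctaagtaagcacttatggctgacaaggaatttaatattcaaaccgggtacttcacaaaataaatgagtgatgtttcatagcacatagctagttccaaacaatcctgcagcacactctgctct

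The capitalised run is 24 bases long and lies at -153 to -130 of *Hsd3b5* and -105 to -82 of *Hsd3b3*, counted back from -1 just before the start. It was found in 3 of 32851 mouse promoter windows, namely that of *Hsd3b5* and both of *Hsd3b3*. A local alignment of the *Hsd3b5* and *Hsd3b3* windows matched 151 of 202 columns (74.8%). *Hsd3b2* has no counterpart of this run: its longest run shared with *Hsd3b5* is 8 bases, which 381 promoter windows (1.16%) also hold. Short motifs were searched on both strands of the 300-base windows (250 before and 50 after the start). The first 7 bases of the capitalised run match TGTTTNC, the FOXA motif, on the opposite strand, and 20.5% of all promoter windows hold a match. The window of *Hsd3b6*, a member with no reads on either diet, holds a match too, at -161 to -155. TTCNNNGAA, the letters of a STAT5 or BCL6 site (8.30% of promoters), was found in the windows of *Hsd3b1* and *Hsd3b7* and in those of no other member. TATAAA (the core promoter box, 13.6%), AGGTCA (nuclear receptor half-site, 16.3%) and ATCAAT (HNF6 or CUX2 site, 7.54%) were absent from the windows of *Hsd3b2*, *Hsd3b3* and *Hsd3b5*. The RefSeq start of *Hsd3b5* (98645534) lies upstream of the start in GENCODE (98630252), so the *Hsd3b5* window belongs to the RefSeq transcript.

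The remaining 4 members gave little or no signal on either diet. *Hsd3b1* had 1 read in each ND library and 1, 2 and 0 reads in CDA-HFD, or 0.0799 to 0.0873 TPM against 0 to 0.152 TPM. The ratio of ND to CDA-HFD over those 3 and 3 reads was 1.16 (exact 95% interval 0.156 to 8.69), so no difference was detectable at this depth. *Hsd3b6* was listed at 0 in all 6 libraries, and the 3 reads that a count of 0 allows would correspond to 0.202 to 0.270 TPM per library. These are the members known from steroid-making organs, and most markers of those organs were low too. Of 12 genes of adrenal cortex and gonad, 8 stayed below 1 TPM in every library, and *Cyp11a1*, *Cyp11b1* and *Cyp19a1*, the enzymes that make pregnenolone, corticosterone and oestrogen, were listed at 0 in all 6. The other 4 were *Mrap*, *Star*, *Inha* and *Insl3*. *Mrap*, the melanocortin receptor accessory protein, was at 149 ± 9.82 TPM on ND and 121 ± 5.87 TPM on CDA-HFD (SD, n = 3 each). *Star*, which moves cholesterol into mitochondria, was at 1.22 to 1.65 TPM over the 6 libraries, and *Inha* and *Insl3* exceeded 1 TPM only in CDA-HFD replicate 1. Of the exonic bases of *Insl3*, 64.8% overlap *Jak3* on the same strand, so its reads may not be its own. Of 10 kidney markers, 9 were below 1 TPM in every library.

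*Hsd3b4* and *Hsd3b7* were also listed at 0 in all 6 libraries, but sequence and annotation leave little of either gene to be counted on its own. Of the 1563 windows of 75 bases (the length of the reads in the study's standard bulk protocol) in *Hsd3b4* transcripts, all 1563 also occur in *Gm10681*, a neighbouring gene listed at 0 too. The read length of the whole-liver libraries is not stated separately, so the shares of such windows hold for reads of 75 bases. For *Hsd3b7*, at chr7:127800604-127803802 on the plus strand, 1839 of 2052 windows (89.6%) occur in the read-through gene *Gm49388* or in *9430064I24Rik* on the opposite strand. Of its 1987 exonic bases, 0 are free of another gene when both strands count and 322 when only its own strand counts. *Gm49388* was listed at 0 in all 6 libraries as well, whereas *9430064I24Rik* had 2.94 ± 0.464 TPM on ND and 2.90 ± 0.723 TPM on CDA-HFD (SD, n = 3 each). Among 150 protein-coding genes without a free exonic base when both strands count, 135 (90.0%) were listed at 0 in all 6 libraries. Of all 21494 protein-coding genes, 22.7% were. Whether reads that fall on more than 1 gene or place were counted is not stated in the sources used here, nor is the strand setting. The zeros of *Hsd3b4* and *Hsd3b7* are therefore given as listed and not as a level.

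The coding sequences fell into pairs and groups. The 6 genes on chromosome 3 each have 1119 coding bases and were 79.7% to 95.2% identical to each other over 15 pairs, while *Hsd3b7*, with 1107 coding bases, was 51.9% to 53.1% identical to them. *Hsd3b5* was closest to *Hsd3b4* (95.2%) and *Hsd3b3* to *Hsd3b2* (95.1%), and *Hsd3b5* and *Hsd3b3*, the 2 abundant members of the ND liver, were the least alike of the 15 pairs (79.7%). Of 75-base windows, 11.7% in *Hsd3b5*, 22.9% in *Hsd3b3*, 15.8% in *Hsd3b2*, 7.93% in *Hsd3b6* and 1.35% in *Hsd3b1* occur in transcripts of another gene. *Hsd3b2* and *Hsd3b3* share 290 windows, so part of their reads could not be told apart. *Hsd3b5* shares its 173 windows with *Hsd3b4* and *Gm10681*, both listed at 0. It shares 87 of them also with *Gm4450*, listed at 0 in 5 libraries and at 0.0885 TPM in ND replicate 3. Because the counting of shared reads is not stated, these zeros do not show that reads in those windows belonged to *Hsd3b5*.

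**Figure D3:**
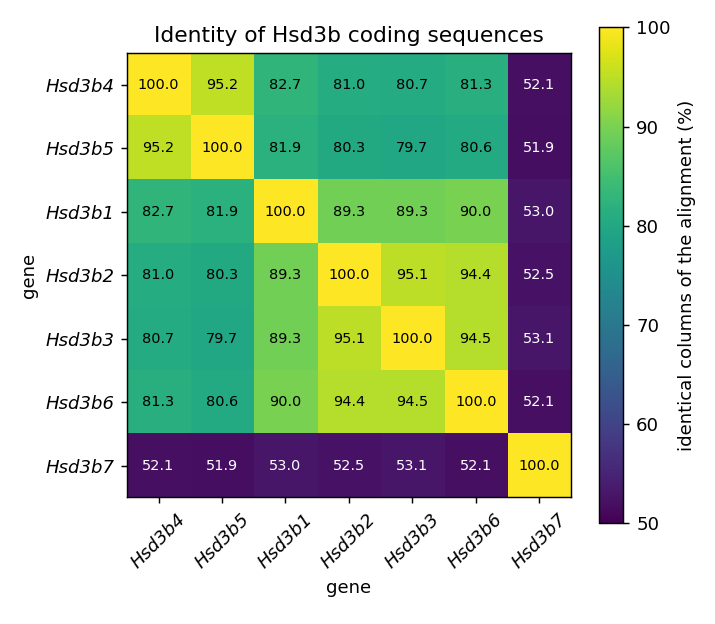
Percent of identical columns in pairwise alignments of the *Hsd3b* coding sequences, with both axes listing the genes and colour running from 50 to 100%. *Hsd3b4* and *Hsd3b5* form 1 close pair (95.2%), *Hsd3b2*, *Hsd3b3* and *Hsd3b6* a close trio (94.4% to 95.1%), and *Hsd3b7* stands apart from all (51.9% to 53.1%).

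The 6 chromosome 3 members lie on the minus strand within chr3:98499071-98859794 (GRCm38), a stretch of 360.7 kb that also holds 12 other genes, 10 of them pseudogenes. Of these 12, 8 were listed at 0 in all 6 libraries, and no pseudogene exceeded 0.769 TPM. The flanking gene *Phgdh*, which encodes the first enzyme of serine synthesis, rose from 0.298 ± 0.0562 to 2.59 ± 0.531 TPM (SD, n = 3 each), with a log2 difference of 1.46 ± 0.16 (SE, adjusted p = 8.46e-05), and it missed the fold limit for a call after quantile normalization (0.97). *Wars2*, on the far side, gave 4.70 ± 0.375 and 5.15 ± 0.322 TPM (SD, n = 3 each, adjusted p = 0.382). *Zfp697*, which spans most of the cluster on the other strand, did not pass the filter (0.261 to 0.376 TPM on ND and 0.601 to 1.09 TPM on CDA-HFD), nor did *Gm4450*, *Hao2* and *Tbx15*.

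Genes of other steps of steroid conversion were read from the fit over all genes, in which 3.79% of tested genes were called lower and 21.1% higher. The share called lower was 7.13% after median-of-ratios scaling and 8.05% after quantile normalization. Of 17 tested hepatic steroid reductases and dehydrogenases outside the family, 4 fell and 2 rose. Their median log2 difference was -0.74, beside 0.32 for all tested genes. After median-of-ratios scaling 10 fell and 1 rose, and after quantile normalization 5 fell and 0 rose. On the TPM scale, 11 were lower and 4 higher in limma at an unadjusted p under 0.05. *Akr1c14*, a 3-alpha-hydroxysteroid dehydrogenase, fell from 447 ± 11.0 to 134 ± 13.2 TPM (SD, n = 3 each; log2 difference -1.73 ± 0.08, adjusted p = 6.21e-07). *Srd5a1*, a steroid 5-alpha-reductase, fell from 181 ± 12.2 to 56.0 ± 9.72 TPM (log2 difference -1.69 ± 0.12, adjusted p = 7.41e-06), with 18.0% of its exonic bases shared with *Gm17108*. The 2 called rises were those of *Akr1c18*, the 20-alpha-hydroxysteroid dehydrogenase, from 0.378 ± 0.115 to 2.43 ± 0.566 TPM, and of *Srd5a3*, which reduces polyprenol, from 20.9 ± 1.44 to 43.8 ± 2.21 TPM. Both had log2 differences near the limit (1.30 and 1.03), *Akr1c18* lost its call after quantile normalization (0.79), and *Srd5a3* lost it after both scalings (0.65 and 0.67) and without ND replicate 2 (0.98) or CDA-HFD replicate 3 (just under 1.00).

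Of 11 tested 17-beta hydroxysteroid dehydrogenases, which act on the other end of the same steroids, 2 fell and 0 rose in limma (0 rose with voom too, and 6 were higher and 5 lower at an unadjusted p under 0.05). *Hsd17b2*, which oxidises oestradiol and testosterone, fell from 459 ± 24.4 to 121 ± 19.7 TPM (SD, n = 3 each; log2 difference -1.93 ± 0.12, adjusted p = 3.26e-06). *Dhrs11* fell from 87.2 ± 7.77 to 42.0 ± 2.93 TPM (log2 difference -1.03 ± 0.09, adjusted p = 1.95e-05), below the fold limit without ND replicate 3 (-0.97) or CDA-HFD replicate 2 (-0.99). The median of the list was 0.28, next to 0.32 for all tested genes. Other dehydrogenases of the same short-chain family with a 3-beta activity or kinship were *Sdr42e1* and *Nsdhl*, the sterol dehydrogenase of cholesterol synthesis. *Sdr42e1* went from 131 ± 15.4 to 71.6 ± 9.26 TPM (SD, n = 3 each), with a log2 difference of -0.87 ± 0.12 (adjusted p = 0.000287) that missed the fold limit on the TPM scale and passed it after median-of-ratios scaling (-1.26) and quantile normalization (-1.03). *Nsdhl* was at 58.8 ± 15.5 and 43.8 ± 2.86 TPM (adjusted p = 0.0656).

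Steroid hydroxylation and conjugation moved in both directions: 10 of 21 tested genes fell and 4 rose, with a median of -0.88. Every gene that rose here, *Sult1e1* and *Cyp17a1* among them, is also in the female-biased list below. Some genes that fell, such as *Cyp7b1*, are also in the male-biased list, so these counts are not separate results. After median-of-ratios scaling 15 fell, and after quantile normalization 10 fell. On the TPM scale, 15 were lower and 4 higher in limma at an unadjusted p under 0.05. *Cyp2c29* fell from 1696 ± 44.3 to 137 ± 10.4 TPM (SD, n = 3 each; log2 difference -3.62 ± 0.07, adjusted p = 1.60e-08). *Sult1e1*, the oestrogen sulphotransferase, had 0.130, 0 and 0 TPM on ND and 32.2, 47.6 and 29.1 TPM on CDA-HFD. *Cyp17a1*, which makes the androgen precursors that classical 3-beta-hydroxysteroid dehydrogenases act on, rose from 4.42 ± 2.72 to 112 ± 13.4 TPM (log2 difference 4.49 ± 0.29, adjusted p = 5.12e-06). Of 8 tested steroid receptors and binding proteins, *Serpina6* (corticosteroid-binding globulin) fell by 2.01 ± 0.18 on the log2 scale (adjusted p = 2.80e-05), and *Fkbp5*, a co-chaperone of the glucocorticoid receptor, rose by 2.02 ± 0.09 (adjusted p = 4.76e-07).

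In bile acid synthesis, the pathway of *Hsd3b7*, 5 of 19 other tested genes fell and 2 rose, with a median of -0.64. The falls include *Akr1c14*, counted above among the reductases and dehydrogenases, and *Cyp7b1*, counted also under steroid hydroxylation and male-biased genes. After median-of-ratios scaling 10 fell, and after quantile normalization 5 fell. On the TPM scale, 12 were lower and 4 higher in limma at an unadjusted p under 0.05. *Cyp7b1*, the oxysterol 7-alpha-hydroxylase that makes substrates of the C27 enzyme, fell from 320 ± 59.4 to 26.8 ± 0.706 TPM (SD, n = 3 each; log2 difference -3.51 ± 0.13, adjusted p = 2.39e-07). *Cyp2c70*, which makes muricholic acids, fell by 1.96 ± 0.12 on the log2 scale (adjusted p = 4.02e-06). *Cyp7a1*, the rate-limiting enzyme of the classical pathway, varied widely within both diets, with 13.6, 20.3 and 6.14 TPM on ND and 69.7, 22.6 and 51.7 TPM on CDA-HFD. Its log2 difference was 1.77 ± 0.48 (SE, adjusted p = 0.0120). *Cyp39a1*, the 24-hydroxycholesterol 7-alpha-hydroxylase, rose from 32.0 ± 2.21 to 133 ± 18.0 TPM (log2 difference 2.02 ± 0.10, adjusted p = 1.30e-06).

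**Figure D4:**
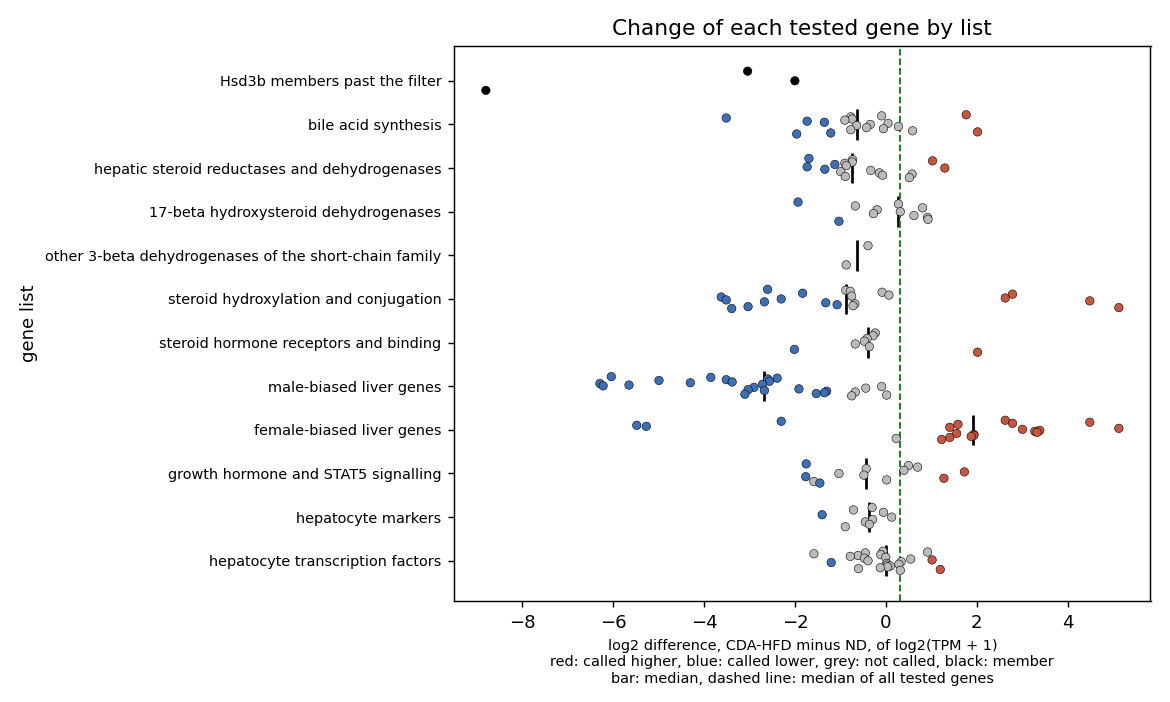
Log2 difference (CDA-HFD minus ND) of each tested gene by list, with genes called higher in red, called lower in blue and not called in grey, a bar at each list's median and a dashed line at the median of all tested genes (0.32). The 3 *Hsd3b* members past the filter are in black at -8.80, -3.04 and -2.00, and male-biased liver genes reach furthest to the left among the lists drawn (median -2.69).

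*Hsd3b5* is known as a male-biased liver gene, so other genes with a known sex bias in mouse liver were read beside it. Of 26 tested male-biased genes other than the family, 21 fell and 0 rose in limma (0 rose with voom, and 0 were higher at an unadjusted p under 0.05), with a median log2 difference of -2.69. The largest falls were those of the major urinary protein genes *Mup1* (-6.29 ± 0.28, adjusted p = 5.89e-07) and *Mup12* (-6.22 ± 0.55, adjusted p = 2.85e-05), whose near-identical copies make the split of reads among them uncertain. Of 30 female-biased genes 20 passed the filter, and 7 of the 30 stayed below 1 TPM in every library. Of the 20 tested, 16 rose and 3 fell, with a median of 1.91, beside 21.1% of all tested genes called higher. A gene such as *Sult1e1*, which passes the filter only through its CDA-HFD level, had to differ, so these counts lean towards rises. With no filter 17 rose and 3 fell. *Sult1e1* and *Cyp17a1* led the rises, while *Cyp2c40* (95.0 ± 17.3 to 1.14 ± 0.247 TPM) and *Cyp2c69* (40.9 ± 3.99 to 0.0802 ± 0.00606 TPM; SD, n = 3 each) fell.

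Growth hormone acting through STAT5 is known to set this sex bias in rodent liver. Of 13 tested genes of that pathway 3 fell and 2 rose, beside 3.79% and 21.1% of all tested genes. After median-of-ratios scaling and after quantile normalization 4 fell and 1 rose, and with voom 4 fell and 2 rose. *Onecut1* was called lower in each of these, at -1.94, -2.12 and -1.78, and also at a minimum mean of 5 TPM. Without ND replicate 1 the counts were 5 and 2, as *Cish* and *Onecut1* were then called lower. In ND replicates 1, 2 and 3 *Cish* was at 2.04, 32.9 and 32.1 TPM and *Onecut1* at 5.53, 38.7 and 33.4 TPM. *Onecut1* shares 54.9% of its exonic bases with *Gm20649*. *Ghr*, the growth hormone receptor, fell from 466 ± 11.6 to 138 ± 9.31 TPM (SD, n = 3 each; log2 difference -1.75 ± 0.06, adjusted p = 2.19e-07). *Igfals*, the acid-labile subunit that carries IGF1 in blood, fell by 1.76 ± 0.12 on the log2 scale (adjusted p = 5.18e-06). *Socs3*, a feedback inhibitor of cytokine receptors, rose by 1.73 ± 0.19 (adjusted p = 9.93e-05), and *Igfbp3* rose by 1.28 ± 0.06 (adjusted p = 1.18e-06), below the fold limit after median-of-ratios (0.89) and quantile normalization (0.95). Among 23 tested transcription factors of hepatocytes 1 fell and 2 rose, against 3 and 0 after median-of-ratios scaling, 4 and 1 after quantile normalization and 4 that fell without ND replicate 1. *Nr0b2* (small heterodimer partner) had a log2 difference of -1.20 ± 0.15 (adjusted p = 0.000171), *Nfe2l2* 1.20 ± 0.15 (adjusted p = 0.000237, below the fold limit after median-of-ratios scaling at 0.80) and *Prox1* 1.02 ± 0.36 (adjusted p = 0.0348). *Prox1* lost its call after either scaling, with no filter, in eBayes without trend and without ND replicate 2 or 3 or CDA-HFD replicate 1 or 2, with adjusted p values from 0.0528 to 0.146 over the alternatives that ended it.

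The 5 tested genes whose profile over the 6 libraries was nearest to that of *Hsd3b5* (Euclidean distance of centred log2(TPM + 1), members left out) were *Mup17*, *Serpina4-ps1*, *Mup1*, *Mup14* and *Elovl3* (the *Mup* genes again being near-identical copies), at distances of 0.405, 1.49, 3.22, 3.23 and 3.42. *Mup17* went from 4319, 4314 and 5348 TPM to 12.1, 11.6 and 9.95 TPM, a log2 difference of -8.57 ± 0.10 (SE). *Serpina4-ps1*, a pseudogene, was at 149 to 347 TPM on ND, and each CDA-HFD library listed it at 0. *Elovl3*, a fatty acid elongase, went from 520 ± 91.1 to 6.98 ± 1.76 TPM (SD, n = 3 each), with a log2 difference of -6.04 ± 0.17 (SE). A small distance here mainly reflects a fall of like size between the diets.

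Markers of other cell types differed between the same libraries. The summed level of 8 macrophage markers was 590 to 668 TPM on ND and 4105 to 4462 TPM on CDA-HFD, with 7 of 8 called higher, among them *Itgax* and *Cd68*. That of 8 stellate cell and myofibroblast markers was 335 to 361 and 1862 to 2000.0 TPM (7 called higher, 4 after quantile normalization), led by *Col1a1*. All 6 markers listed for cholangiocytes were called higher. *Spp1*, which macrophages of injured liver are also known to make and of whose exonic bases 18.8% overlap *Gm42793*, took 86.2% to 89.7% of their summed level in each library, and the other 5 summed to 9.92 to 11.6 TPM on ND and 118 to 128 TPM on CDA-HFD. Of 6 endothelial markers 1 rose (*Lyve1*) and 1 fell (*Kdr*, whose log2 difference of -1.05 became -0.96 without CDA-HFD replicate 2). The 9 hepatocyte markers summed to 33213 to 33457 TPM on ND and 25130 to 28017 TPM on CDA-HFD, with a median of -0.36 and 1 called lower, *Serpina1c* (-1.40 ± 0.10, adjusted p = 8.54e-06). After median-of-ratios scaling 3 were called lower, with *Ttr* (-1.11) and *Fgb* (-1.29) beside it, and 2 without CDA-HFD replicate 2. On the TPM scale, 6 of the 9 were lower and 0 higher in limma at an unadjusted p under 0.05. No marker of these 5 lists was below 1 TPM in every library. The part of these shifts in the values of the *Hsd3b* genes was not tested.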

How the data were processed

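RNA of whole liver was measured in 3 ND and 3 CDA-HFD libraries. The deposited table held TPM made by the authors, who, per the submitters' processing notes, used Trimmomatic 0.39.0, HISAT2 2.2.1 and featureCounts 2.0.1 on GRCm38 (mm10). Strand and multi-mapping settings are not given in the sources used here. TPM times merged exon length (GENCODE basic annotation) fell on whole multiples of 1 step per library for 98.4% to 98.5% of values (within 0.01 reads), which gave reads. Intervals and floors (3 reads) cover counting error only.

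A limma model (version 3.58.1, R 4.3.3) of log2(TPM + 1) with diet as its only term, moderated with a trend, was fitted to the 14730 genes whose mean reached 1 TPM, with two-sided p-values adjusted by Benjamini-Hochberg. A gene was called when its adjusted p was under 0.05 and its log2 difference reached 1 in either direction. A gene that was not called may still differ by less than this limit. The study names no test for this table. The fit was run on simulated reads with as many rises as falls, which cannot check how far the calls here depend on scaling. Reads limit precision for the low members. The p-values are for the diet difference in this moderated model, with an error that rests on 3 libraries per diet and on the trend over all tested genes.

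The members and the 18 gene lists were chosen with earlier results of these data known. Some genes are in several lists and are counted in each. Named genes followed a rule: all members, cluster neighbours, in each list the 2 largest rises and falls among called genes or the most abundant gene where none was called, the 5 nearest profiles to *Hsd3b5*, and sex chromosome genes. *Alb*, *Cyp11a1*, *Cyp11b1*, *Cyp19a1*, *Star*, *Inha*, *Insl3*, *Ttr*, *Fgb*, *Nsdhl*, *Cish*, *Onecut1* and the genes that overlap *Hsd3b7* were named beyond it, after their values were seen. A result that the rule covers is not reported here. *Tf*, *Sts*, *Cml5* and *Sdr42e2* were not matched in the table and not analysed here. Alternatives were other pseudocounts, filters, scalings, eBayes without trend, a replicate block, voom and leaving out each library. Coding sequences were taken as the longest open reading frame of annotated length and aligned globally with Biopython 1.88. 75-base windows were compared with all annotated transcripts on both strands.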

Additional observations from a re-analysis of the deposited data

How the results depend on the processing

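Genes called higher in CDA-HFD numbered 1811 after quantile normalization and 1914 at a minimum mean of 5 TPM, where fewer genes were tested, against 3115. Genes called lower numbered 1044 after median-of-ratios scaling and 1188 after quantile normalization, against 558; the cause was not tested. Median-of-ratios scaling put the log2 difference of the family sum at -3.54, of *Hsd3b2* at -3.41, of *Hsd3b3* at -2.40 and of *Hsd3b5* at -9.04, and quantile normalization put *Hsd3b2* at -3.45. *Hsd3b5* went to -10.55 with a pseudocount of 0.1 and to -10.83 with voom, as its CDA-HFD level is below the pseudocount of 1 TPM. Leaving out 1 library at a time gave -8.89 to -8.73 for *Hsd3b5* and -3.24 to -3.03 for the family sum. Of the alternative values for the family and for counts over all genes, these 11 moved by more than the replicate spread (or 1.5 times for counts), 84 did not, and 0 reversed a direction. Of those for single gene lists and *Hsd3b1*, 35 moved and 297 did not. Values at 0 under every setting, among them *Hsd3b4*, *Hsd3b6* and *Hsd3b7*, were left out of these counts.

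A replicate block left the counts at 3128 higher and 559 lower and changed no call of a named gene. The deviations of same-numbered libraries correlated at 0.086, 0.039 and 0.089, each the highest for its library but below 0.1, so the libraries were taken to share only a number.

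With 3 libraries per diet, 10 reads of *Hsd3b5* and 3 of *Hsd3b1* in CDA-HFD, the levels of low members rest on few reads. The zeros of *Hsd3b4* and *Hsd3b7* cannot be read as levels.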
